A study of Mus musculus with 9 samples.

Results

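The 9 genes described here mark B cells and the antibody-secreting plasma cells that arise from them: Cd79a, Cd79b, Ms4a1, Pax5, Cr2, Jchain, Mzb1, Ighm and Igkc. They were picked by symbol as a fixed set, and all 9 were found among the 47069 gene rows of 9 bulk RNA sequencing libraries. The libraries came from 3 distal metastases, 3 proximal metastases and 3 primary prostate tumours of mice. Every animal was a C57BL/6 mouse of about 9 to 10 months whose engineered changes, shared by the metastases and the primary tumours, included Ctnnb1pc(ex3)delta/+, a loss of exon 3 on 1 Ctnnb1 allele that is restricted to the prostate and stabilises beta-catenin. Proximal metastases lay in the epididymal fat. Distal metastases carry the diaphragm as tissue label and the lung in the growth protocol, so they are called distal here. Samples were matched within 3 mice, but which ones belong together is not given, and library numbers only name libraries.

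A B cell carries an antibody of its own on its surface, where the Cd79a and Cd79b proteins pass the signal of bound antigen into the cell. After activation, some B cells become plasma cells, which shut down Pax5 and much of the surface programme and secrete large amounts of antibody. An antibody joins heavy chains, whose constant region (Ighm for IgM, Igha for IgA) sets its class, to light chains of the kappa (Igkc) or lambda kind. Each B cell uses 1 heavy and 1 light variable segment, so a few expanded B cell families can raise the share of single segments. In tumours, B cells are known from scattered infiltrates and from lymphoid aggregates.

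Levels below are CPM, the deposited counts of a gene scaled to the library's total with the TMM factor. Totals ran from 28334730 counts in primary 3 to 40408723 in distal 2, so 1 CPM rests on 28.3 to 40.4 counts. Some libraries stood apart. Ctnnb1, the targeted gene, had 4208, 4451 and 3549 CPM in distal 1, 2 and 3 and 4392, 3621 and 4955 CPM in proximal 1, 2 and 3, against 4393, 936 and 1769 CPM in primary 1, 2 and 3. Primary 1 thus lay within the range of the metastases for Ctnnb1, while primary 2 and primary 3 lay below it. Means of the primary group therefore join unlike libraries, and results without primary 1 are given below. Gene totals do not show the loss of exon 3. Epithelial markers summed to 10030 CPM in primary 2 and to between 1679 and 5086 CPM elsewhere. The summed seminal vesicle secretory genes reached 7492 CPM in primary 3 and at most 25.3 CPM elsewhere. Skeletal muscle genes summed to 579 and 798 CPM in distal 2 and 3, against 1.90 to 6.72 CPM in the other 7 libraries, while the lung surfactant gene Sftpc stayed at or below 0.0749 CPM everywhere. The part of these differences in the results below was not tested.

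The promoters of a surface gene and of a secretory gene, Cd79a and Jchain, are shown. Their levels followed the same broad order of libraries, described below, with different ranks within it and over different ranges. Each run covers 250 bases before to 50 after the transcription start in RefSeq on GRCm38.p6, at chr7:24897247-24897546 on the plus strand for Cd79a and chr5:88527848-88528147 on the minus strand for Jchain. Capitals mark the letters CANCTG on either strand. They are a subset of the E-box pattern CANNTG, whose other forms were not searched and stay in lower case.
Cd79a: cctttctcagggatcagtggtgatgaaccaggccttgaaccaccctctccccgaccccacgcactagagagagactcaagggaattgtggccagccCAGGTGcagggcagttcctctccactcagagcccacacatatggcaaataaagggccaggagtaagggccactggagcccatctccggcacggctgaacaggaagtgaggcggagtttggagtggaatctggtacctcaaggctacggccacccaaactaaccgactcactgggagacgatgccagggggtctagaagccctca
Jchain: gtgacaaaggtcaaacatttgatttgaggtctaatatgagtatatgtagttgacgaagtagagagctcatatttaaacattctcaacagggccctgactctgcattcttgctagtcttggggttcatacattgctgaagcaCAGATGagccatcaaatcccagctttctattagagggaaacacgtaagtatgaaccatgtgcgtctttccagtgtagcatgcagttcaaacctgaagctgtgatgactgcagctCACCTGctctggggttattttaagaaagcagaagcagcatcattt
The third sequence is the last 300 bases of the variable exon of Igkv3-2, the kappa segment whose share in each library is given below (chr6:70698768-70699067, plus strand, GRCm38). Capitals mark the 20 bases that differ from Igkv3-1, its nearest relative among the 99 other kappa segments compared.
Igkv3-2: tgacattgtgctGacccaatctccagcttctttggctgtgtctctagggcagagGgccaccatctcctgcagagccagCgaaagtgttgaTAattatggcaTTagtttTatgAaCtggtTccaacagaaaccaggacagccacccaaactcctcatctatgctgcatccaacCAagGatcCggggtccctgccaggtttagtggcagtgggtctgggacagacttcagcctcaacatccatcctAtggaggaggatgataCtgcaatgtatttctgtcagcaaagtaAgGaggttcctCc
The segments Igkv3-2 and Igkv3-1 were identical at 93.3% of these bases, and the next relative, Igkv3-4, at 91.7%. Of the 9 genes, 4 matched a RefSeq promoter in the table used. The letters CANCTG lay in 3 of these 4 promoters (Cd79a, Cr2 and Jchain) and in 51.4% of 32851 promoters of the same length. The octamer ATGCAAAT, searched on both strands, lay in none of the 4 and in 1.74% of all, and CCCNNGGG in none of the 4 and in 13.7% of all. A match of letters is a description and not a binding site.

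Both signalling partners of the B cell receptor were highest in proximal 2. Cd79a (ENSMUSG00000003379, chromosome 7, 24897381 to 24902197, plus strand, GRCm38) had 0.400, 1.74 and 2.46 CPM in distal 1, 2 and 3 and 0.756, 11.4 and 0.342 CPM in proximal 1, 2 and 3, against 5.02, 0.507 and 6.38 CPM in primary 1, 2 and 3. Proximal 2, primary 1 and primary 3 were high and the other 6 libraries low, so all groups overlapped. Cd79b (ENSMUSG00000040592, chromosome 11, 106311341 to 106314762, minus strand) had 0.874, 1.52 and 1.37 CPM in the distal libraries and 0.678, 9.33 and 0.636 CPM in the proximal ones, against 4.08, 0.975 and 5.02 CPM in the primary ones. It showed the same 3 high libraries with a narrower range, 14.7-fold between the highest and the lowest library, against 33.4-fold for Cd79a.

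The other B cell surface genes had the same high libraries. Ms4a1 (ENSMUSG00000024673, chromosome 19), which encodes CD20, a surface protein of mature B cells, had 0.300, 1.26 and 1.10 CPM in distal 1, 2 and 3 and 0.443, 9.41 and 0.220 CPM in proximal 1, 2 and 3, against 3.73, 0.546 and 4.27 CPM in primary 1, 2 and 3. Its proximal libraries therefore included both the highest and the lowest value of all 9. Cr2 (ENSMUSG00000026616, chromosome 1), the complement receptor CD21 of B cells and follicular dendritic cells, had 0.0999, 0.452 and 0.466 CPM in the distal libraries and 0.365, 5.48 and 0.122 CPM in the proximal ones, against 2.63, 0.117 and 9.19 CPM in the primary ones. Unlike the receptor genes, Cr2 had its highest value in primary 3. Pax5 (ENSMUSG00000014030, chromosome 4), the transcription factor that maintains B cell identity, had 0.0250, 0.404 and 0.932 CPM in the distal libraries and 0.261, 4.26 and 0.0734 CPM in the proximal ones, against 2.23, 0.390 and 2.78 CPM in the primary ones. Its lowest value, in distal 1, rested on 1 count and that of proximal 3 on 3 counts. Pax5 exons overlap Gm12462 and 5730488B01Rik on the other strand, and the gene body of Ms4a1 holds the antisense gene 4930526L06Rik. Whether the counting used strand is not given, so reads of these partners cannot be told apart.

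The genes of antibody assembly were again high in those 3 libraries. Mzb1 (ENSMUSG00000024353, chromosome 18), a chaperone of the endoplasmic reticulum that helps assemble IgM, had 0.0999, 0.690 and 1.10 CPM in distal 1, 2 and 3 and 0.157, 6.78 and 0.196 CPM in proximal 1, 2 and 3, against 2.95, 0.117 and 5.02 CPM in primary 1, 2 and 3. It shares exonic bases with SPATA24 on the same strand, and its 9 libraries together held 607 counts, so its level is uncertain. Jchain (ENSMUSG00000067149, chromosome 5, 88519809 to 88527891, minus strand), which links the units of secreted IgM and IgA, had 0.724, 11.9 and 13.0 CPM in the distal libraries and 2.19, 63.6 and 1.96 CPM in the proximal ones, against 75.2, 2.69 and 85.6 CPM in the primary ones. Its 3 high libraries lay within a narrow band of 63.6 to 85.6 CPM, while distal 2 and 3 stood between them and the 4 low libraries.

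The antibody chains themselves were the most abundant of the 9 by CPM in every library. Ighm (ENSMUSG00000076617, chromosome 12, 113418558 to 113422730, minus strand), the constant region of IgM, had 3.97, 110.2 and 136 CPM in distal 1, 2 and 3 and 17.2, 173 and 20.0 CPM in proximal 1, 2 and 3, against 248, 11.7 and 874 CPM in primary 1, 2 and 3. The highest library exceeded the lowest 220-fold. Igkc (ENSMUSG00000076609, chromosome 6, 70726435 to 70726966, plus strand), the constant region of the kappa light chain, had 4.60, 66.7 and 67.03 CPM in the distal libraries and 11.7, 314 and 10.2 CPM in the proximal ones, against 257, 13.8 and 459 CPM in the primary ones. Distal 1 was the lowest library for both chains. Per length, in the scaled unit TPM, Igkc ranged from 31.5 to 2910 and Cd79a from 0.775 to 29.3, and Igkc exceeded Cd79a on this scale in every library.

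**Figure D1:**
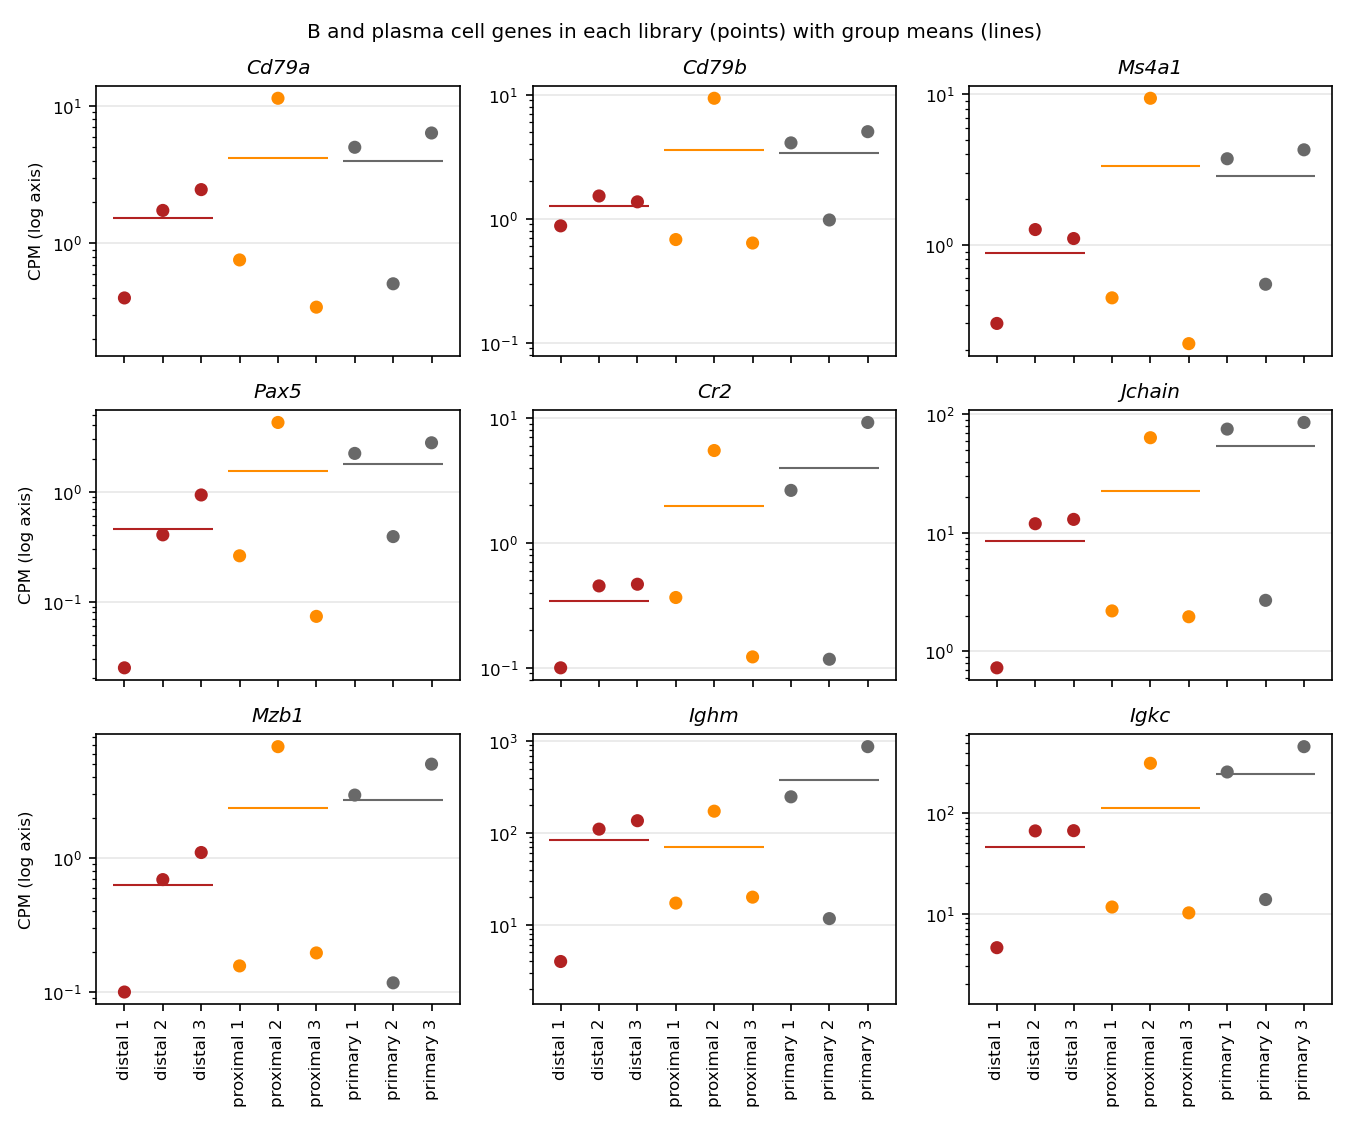
CPM of each of the 9 genes (log axis) in the 9 libraries, distal, proximal and primary from left to right, with each point 1 library and each line the mean of 3. Proximal 2, primary 1 and primary 3 hold the highest 3 values in all 9 panels.

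The 9 genes put the libraries in the same broad order. Proximal 2, primary 1 and primary 3 took ranks 1 to 3 for 9 of 9 genes, distal 2 and distal 3 took ranks 4 and 5 for 9 of 9, and distal 1, proximal 1, proximal 3 and primary 2 took ranks 6 to 9. Of the 18204 genes tested, 647 (3.55%) had the same highest 3 libraries, and 149 (0.819%) also had the same next 2, the 9 genes included. This order was noticed in the values and carries no test. The differences between libraries of 1 group were thus as wide as those between groups: Cd79a averaged 1.53 ± 1.05 CPM in distal and 4.17 ± 6.28 CPM in proximal metastases, against 3.97 ± 3.07 CPM in primary tumours (SD, n = 3 each). Igkc averaged 46.1 ± 35.9 CPM in distal and 112 ± 175 CPM in proximal metastases, against 243 ± 223 CPM in primary tumours. In bulk RNA, fewer cells of a type and less RNA per cell cannot be told apart.

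The ratio of antibody to surface transcripts was not the same in all libraries. Igkc counts per Cd79a count were 11.5 in distal 1 (95% exact interval 6.89 to 20.5), 15.4 in proximal 1 and 27.2 to 38.4 in 5 other libraries, and they reached 51.2 in primary 1 (44.3 to 59.5) and 72.0 in primary 3 (62.4 to 83.6). Proximal 2, the library with the highest Cd79a, held 27.5 (25.0 to 30.3). The 2 primary tumours with many B cell transcripts therefore had more kappa chain per receptor transcript than the proximal metastasis with the most, beyond counting error. Within the secretory genes, the ratio of Igkc to Jchain was steadier, at 4.93 to 6.34 in 8 libraries and 3.42 in primary 1 (3.28 to 3.57), whose interval lay below those of all the others. These intervals cover counting error only, and PCR copies are not independent molecules.

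The first comparison asks whether distal metastases differed from the primary tumours. All 9 genes had lower means in distal metastases, and none of these differences passed edgeR's test at an adjusted p below 0.05. The largest was Cr2, with a log2 fold change of −3.55 ± 1.71 (SE) and an adjusted p of 0.312 in edgeR's quasi-likelihood test. Jchain stood at −2.67 ± 1.71 (adjusted p = 0.390), Igkc at −2.40 ± 1.67 (adjusted p = 0.416), Ighm at −2.18 ± 1.62 (adjusted p = 0.440) and Cd79a at −1.38 ± 1.38 (adjusted p = 0.546). The test called 0 of 9 genes at an adjusted p below 0.05, where 0.0879% of all tested genes were called, and 0 of 9 had an unadjusted p below 0.05, where 17.4% of all did. DESeq2 and limma-voom also called 0 of 9, against 7.93% and 0.00549% of all genes. The distal and primary values overlapped for every one of the 9, while they did not overlap for 18.8% of all genes. The median log2 fold change of the 9 was −2.11, against −0.03 over all tested genes, of which 52% lay below 0. With 1 library left out it ran from −2.75 without distal 3 to −1.31 without primary 3. Without primary 3, Cr2 stood at −2.03, Cd79a at −0.86, Ighm at −0.64 and Igkc at −1.56. The lowest adjusted p of any of the 9 over all alternatives was 0.107, for Cr2 in DESeq2.

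In proximal metastases against primary tumours, none of the 9 differences passed edgeR's test at an adjusted p below 0.05. Cd79a (log2 fold change 0.07 ± 1.34, adjusted p = 0.977), Cd79b (0.08 ± 1.05, adjusted p = 0.968) and Ms4a1 (0.23 ± 1.33, adjusted p = 0.917) had similar mean levels in both groups. In limma-voom, which compares means of log2 values, they stood at −0.88, −0.80 and −1.11. Ighm stood at −2.43 ± 1.64 (adjusted p = 0.385), Jchain at −1.27 ± 1.63 (adjusted p = 0.622) and Igkc at −1.12 ± 1.60 (adjusted p = 0.660). None of the 9 was called by edgeR, DESeq2 or limma-voom, against 0.0494%, 8.19% and 0.00549% of all genes, none passed an unadjusted p of 0.05, against 18.2%, and every gene's groups overlapped, against 19.4% that did not. Of the 9, 6 lay below 0, where 52.8% of all genes did, and their median was −0.24. These means rested on proximal 2: without it the median was −3.90, and all 9 genes lay below 0. The median turned to 0.26 without proximal 1, 0.33 without proximal 3 and 0.48 without primary 3. The lowest adjusted p of the 9 under any alternative was 0.229, for Ighm in DESeq2.

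Distal against proximal metastases compares the sites with each other, and none of the 9 genes passed edgeR's test. Ighm stood at 0.25 ± 1.56, and the other 8 lay between −1.28 ± 1.61 for Igkc and −2.55 ± 1.65 for Cr2, each with an adjusted p of 1. No gene of the 9 was called by edgeR or limma-voom (0% of all genes were) or by DESeq2 (0.456% of all were), none passed an unadjusted p of 0.05 (2.06% of all did) and none had separate groups (7.62% of all did). The 8 genes below 0 compare with 52.8% of all genes. Their median of −1.50 turned to 1.47 without proximal 2. The comparisons share libraries, so their values are not independent of each other.

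**Figure D2:**
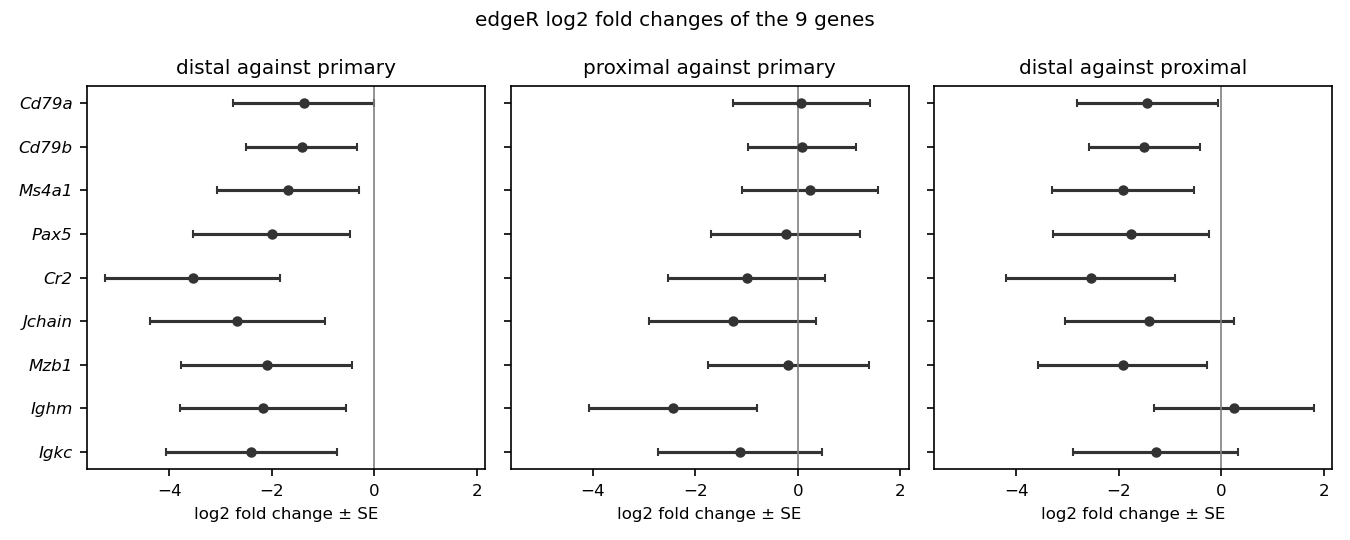
Log2 fold changes of the 9 genes from edgeR with their SE as horizontal bars, for distal against primary, proximal against primary and distal against proximal (left to right). All points lie left of 0 in the first panel, 6 of 9 in the second and 8 of 9 in the third, with adjusted p-values of at least 0.312.

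The class of antibody differed between libraries, also within a group. IgM took 48.8%, 68.4% and 77.1% of the heavy chain constant counts in distal 1, 2 and 3 and 46.1%, 25.2% and 72.9% in proximal 1, 2 and 3, against 38.3%, 22.9% and 73.8% in primary 1, 2 and 3. Distal 2, distal 3, proximal 3 and primary 3 thus had IgM shares of at least 68.4%, and the other 5 had at most 48.8%. IgA, the class of mucosal secretions, took 40.5%, 11.7% and 11.7% in the distal libraries and 39.2%, 31.7% and 22.1% in the proximal ones, against 45.8%, 66.4% and 9.45% in the primary ones. IgA was the leading class in primary 1 and primary 2 by these counts. Per length, Igha stood at 28.3 TPM and Ighm at 13.8 TPM in primary 2, while Igha stood at 422 TPM and Ighm at 499 TPM in primary 1. The 4 IgG genes together took 6.13%, 18.8% and 9.52% of the counts in the distal libraries and 12.6%, 40.7% and 3.93% in the proximal ones, against 15%, 10.1% and 16.1% in the primary ones. Proximal 2, the richest in B cell surface transcripts, was the only library of the 9 in which IgG exceeded IgM by these counts. The shares rest on 326 counts in distal 1, with a 95% Wilson interval of 43.4% to 54.2% for IgM, and on up to 34949 in primary 3. Kappa made up 83.1% of the light chain constant counts in proximal 1 and 87.2% in proximal 3, and 92.1% to 97.6% in the other 7 libraries.

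**Figure D3:**
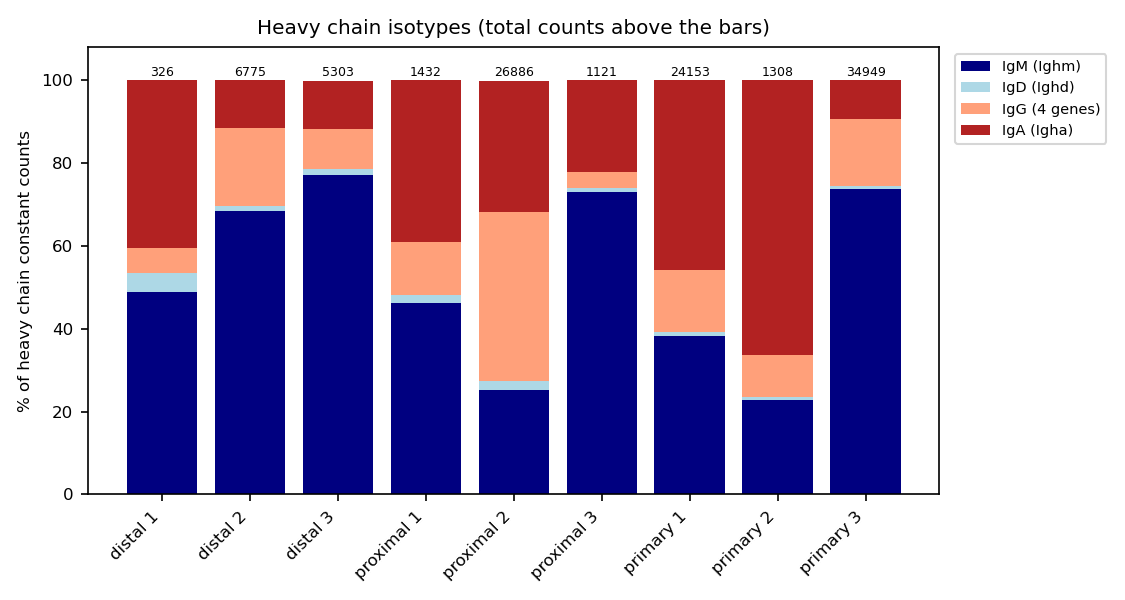
Stacked shares of the heavy chain constant counts on IgM, IgD, IgG and IgA in each library, with the total counts above the bars. IgM takes 68.4% to 77.1% in distal 2, distal 3, proximal 3 and primary 3, and IgA takes 66.4% in primary 2.

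The libraries rich in IgM were also those with the largest shares of the kappa variable segment Igkv3-2. This segment, printed above, was the most counted of 218 variable segments in 6 libraries; its values in all libraries were looked up after that was seen. It held 4 of 57 kappa variable counts in distal 1 (7.02%, Wilson interval 2.76% to 16.7%), 358 of 1311 in distal 2 (27.3%) and 348 of 832 in distal 3 (41.8%). In proximal metastases it held 3 of 124 counts (2.42%), 349 of 4897 (7.13%) and 93 of 152 (61.2%, 53.3% to 68.6%). In primary tumours the share was 9.89%, 6.40% and 28.8% (27.7% to 29.9%), the last from 1928 of 6701 counts. The 4 libraries with 27.3% to 61.2% of Igkv3-2 are distal 2, distal 3, proximal 3 and primary 3, the same 4 with IgM shares of 68.4% to 77.1%; the other 5 lay between 2.42% and 9.89%. They come from all 3 groups, and which libraries share a mouse is not given. The pattern was noticed in the data and carries no test. The next segment of those 4 libraries took 4.09% to 12.7% of the kappa variable counts. Single segments were also prominent elsewhere: in proximal 1, with 46.1% IgM, Igkv1-117 held 27 of 124 kappa variable counts (21.8%, 15.4% to 29.8%), an interval that overlaps that of Igkv3-2 in distal 2 (25.0% to 29.8%). In the other 4 libraries the most counted kappa segment held 7.13% to 11.2%. Among heavy chain segments, Ighv1-64 was the most counted in distal 3 (14.8%) and proximal 3 (17.9%, 12 of 67 counts), Ighv1-9 in distal 2 (18.6%) and Ighv3-6 in primary 3 (10.2%). How reads that match several variable segments were counted is not given, so neighbours such as Igkv3-1 could share reads with Igkv3-2.

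**Figure D4:**
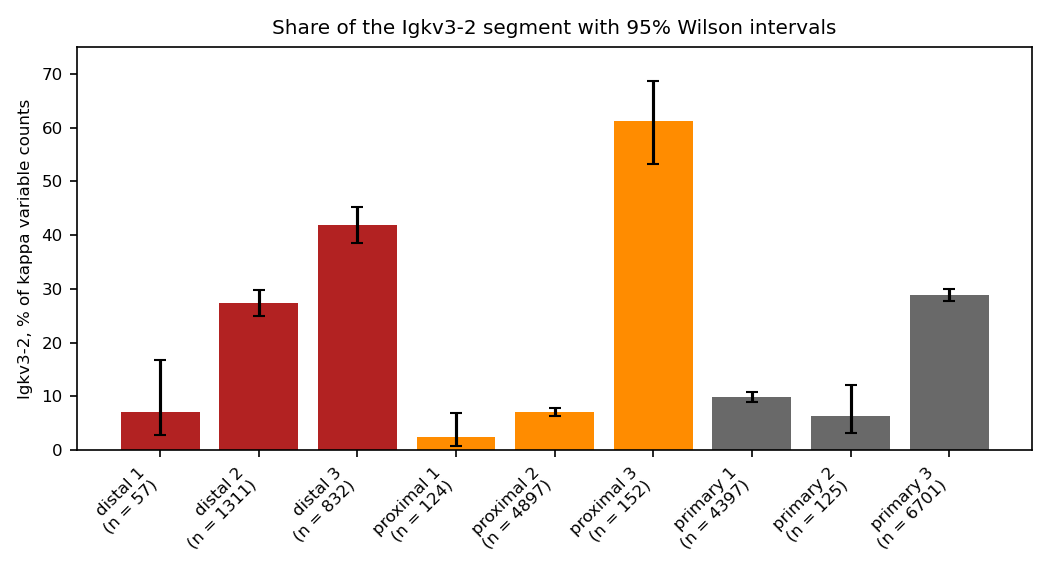
Share of Igkv3-2 among the kappa variable counts in each library (bars) with 95% Wilson intervals for counting error and the number of counts under each name. The shares of distal 2, distal 3, proximal 3 and primary 3 are 27.3% to 61.2%, and those of the other 5 are 2.42% to 9.89%.

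A longer list of 24 B cell lineage genes, of which 22 were tested, had 0 called by edgeR in each comparison. In distal against primary 22 of 22 lay below 0, where 52% of all genes did, with a median log2 fold change of −1.59. An unadjusted p below 0.05 was reached by 5 of 22, near the 17.4% of all genes. In proximal against primary 19 of 22 lay below 0, where 52.8% of all did, with a median of −0.52, and 4 of 22 had an unadjusted p below 0.05, against 18.2% of all. The list includes genes that other cells express, and its most abundant member, Blnk, an adaptor of receptor signalling, had 27.6, 35.6 and 26.0 CPM in distal and 26.0, 16.03 and 50.4 CPM in proximal metastases, against 35.7, 156 and 141 CPM in primary tumours. Blnk was thus high in primary 2, where all 9 B and plasma cell genes were low. DESeq2 called 3 of 22 members in each comparison with primary, where it called 7.93% and 8.19% of all genes. Without primary 1, edgeR called 4 of 22 for distal metastases, against 27.4% of all genes, and 3 of 22 for proximal ones, against 28.7% of all. Of 7 precursor genes, 2 passed the filter on low counts, Il7r and Rag2. Il7r reached 11.2 CPM in primary 3 and lay between 0.339 and 3.82 CPM elsewhere. Rag2 reached 5.15 CPM in primary 2 and lay between 0.331 and 1.63 CPM elsewhere. Neither was called by edgeR. Vpreb1, part of the surrogate light chain of precursors, stayed at or below 0.153 CPM. Rag1 had 1 count, in proximal 2, Igll1 had 1 count, in primary 3, and Vpreb2 had none in any library.

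Genes of the plasma cell programme that glands also express did not follow the 9. Xbp1, a regulator of secretory capacity in plasma cells and glands, varied little, with 420, 335 and 357 CPM in distal and 400, 337 and 455 CPM in proximal metastases, against 324, 320.3 and 322 CPM in primary tumours. Sdc1, the plasma cell marker CD138 that epithelia also carry, had its highest values in primary 2 (677 CPM) and primary 3 (629 CPM). Of 12 tested plasma cell genes, 10 lay below 0 in distal against primary with a median of −1.14, and 9 in proximal against primary with a median of −0.88. Of all tested genes, 52% and 52.8% lay below 0 in these comparisons. The edgeR test called none of the 12, while DESeq2 called 2 in the distal and 3 in the proximal comparison, and edgeR without primary 1 called 5 and 4. Over all tested genes, DESeq2 called 7.93% and 8.19%, and edgeR without primary 1 called 27.4% and 28.7%. The other immunoglobulin constant genes followed the 9 more closely: Igha had 3.30, 18.8 and 20.7 CPM in distal and 14.6, 217 and 6.06 CPM in proximal metastases, against 297, 33.9 and 112 CPM in primary tumours. All 9 tested constant genes lay below 0 in distal against primary (median −3.35) and 6 of 9 in proximal against primary (median −0.57). The edgeR test called 0 of 9 in both. DESeq2 called 1 in distal and 0 in proximal against primary, where it called 7.93% and 8.19% of all genes.

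Receptors and signals that act on B cells or antibodies had separate groups in some cases, without passing edgeR's test. Of 12 tested genes that attract or sustain B cells, 4 had separate groups in distal and 3 in proximal against primary, and of 9 tested genes that bind or carry antibody or complement, 2 and 4 did, where 18.8% and 19.4% of all genes did. Pigr, the epithelial receptor that carries IgA and IgM with the J chain into secretions, had 3.07, 2.05 and 0.566 CPM in distal and 4.88, 13.1 and 0.905 CPM in proximal metastases, against 273, 4731 and 455 CPM in primary tumours. Every metastasis lay below every primary tumour, with a log2 fold change of −9.89 ± 1.78 for distal (adjusted p = 0.104) and −8.18 ± 1.66 for proximal metastases (adjusted p = 0.125). Chosen after their values were seen, 3 survival factors of the lymphocyte lineage also had separate groups. Tnfsf13b, which encodes BAFF, had 0.574, 0.571 and 0.766 CPM in distal and 0.522, 0.816 and 0.856 CPM in proximal metastases, against 2.17, 1.25 and 3.19 CPM in primary tumours (adjusted p = 0.129 for distal and 0.154 for proximal). Tnfsf13, which encodes APRIL, a plasma cell survival factor, had 0.524, 0.666 and 0.799 CPM in distal and 0.443, 0.739 and 0.905 CPM in proximal metastases, against 1.82, 16.3 and 7.05 CPM in primary tumours (adjusted p = 0.118 and 0.132). Il7, a growth factor of early lymphocytes, had at most 0.238 CPM in distal and 0.484 CPM in proximal metastases, against at least 1.33 CPM in primary tumours (adjusted p = 0.115 and 0.142). The fourth gene with separate groups, Lta, which encodes lymphotoxin alpha, was higher in distal metastases, with 0.300, 0.333 and 0.333 CPM, against 0.268, 0.156 and 0.102 CPM in primary tumours (log2 fold change 0.84 ± 0.48, adjusted p = 0.358). Because Tnfsf13b, Tnfsf13 and Il7 were chosen for their separate groups, that choice alone places proximal 2 below every primary tumour for them. The most abundant of the 12, Ltbr, Cxcr4 and Cxcl12, had overlapping groups in both comparisons. Ltbr was highest in primary 2 (300 CPM) and Cxcr4 in distal 3 (32.9 CPM). Cxcl12 had 8.39, 23.2 and 17.9 CPM in distal and 7.56, 22.2 and 7.24 CPM in proximal metastases. Its primary values were 19.4, 2.15 and 30.7 CPM. Like the 9 genes, it was low in distal 1, proximal 1, proximal 3 and primary 2. Cxcl13 had its 3 highest values in proximal 2, primary 1 and primary 3. Of the 12, 10 lay below 0 in distal and 8 in proximal metastases against primary tumours, where 52% and 52.8% of all genes did. The edgeR test called 0 of 12, and DESeq2 and edgeR without primary 1 each called 3 in both comparisons, where DESeq2 called 7.93% and 8.19% of all genes and edgeR without primary 1 called 27.4% and 28.7%.

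Genes of other immune cells did not follow the 9 genes in every library. The 9 summed to 11.1, 195 and 224 CPM in distal and 33.7, 597 and 33.7 CPM in proximal metastases, against 601, 30.9 and 1452 CPM in primary tumours. A list of 16 T and cytotoxic cell genes summed to 2.80, 5.38 and 7.33 CPM in distal and 4.33, 30.5 and 2.47 CPM in proximal metastases, against 9.73, 16.9 and 39.8 CPM in primary tumours. By these sums, primary 2 had more T cell transcripts than primary 1 and fewer B and plasma cell transcripts. Single T cell genes went both ways and rested on few counts. Cd8a had 2.03 CPM in primary 2 and 0.617 CPM in primary 1, while Trbc2 had 0.234 and 0.590 CPM. Macrophage genes summed to 929 CPM in primary 2, the highest of the 9 libraries, against 244 to 802 CPM in the others. Genes shared by all leukocytes summed to 62.1, 87.8 and 198 CPM in distal and 49.9, 141 and 42.9 CPM in proximal metastases, against 100.9, 161 and 230.5 CPM in primary tumours. The adipocyte genes summed to 14.9, 18.6 and 174 CPM in distal and 47.9, 180.2 and 72.7 CPM in proximal metastases, against 126, 7.92 and 35.5 CPM in primary tumours. Proximal 2 was the highest, while primary 3, with the highest sum of the 9 genes, was low in adipocyte genes. The part of fat or adjoining tissue in these values was not tested.

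**Figure D5:**
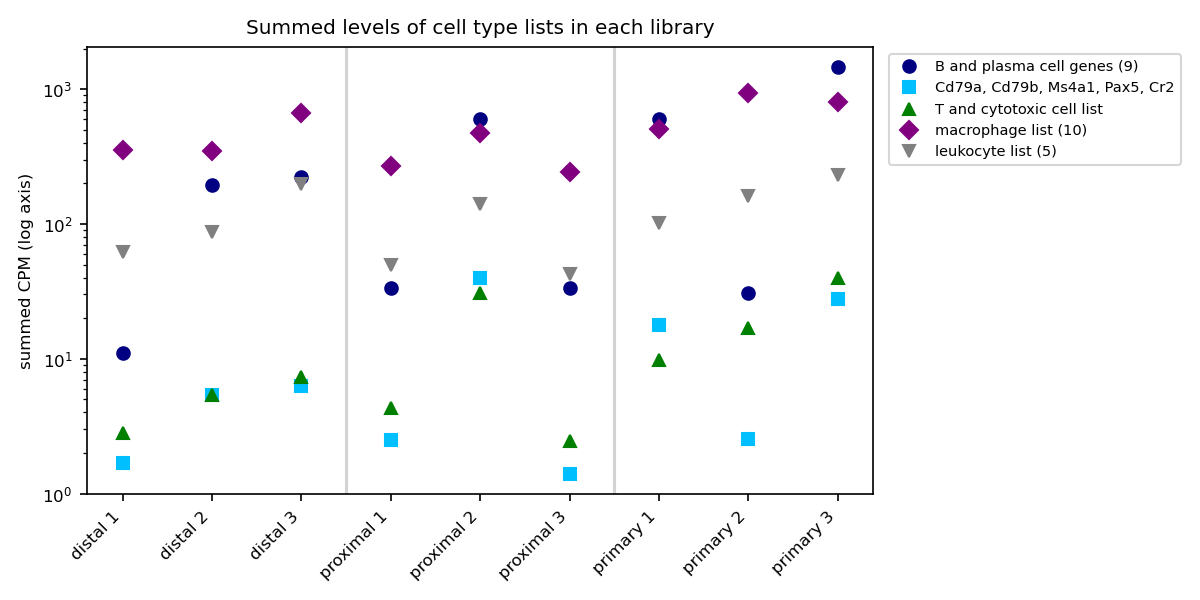
Summed CPM (log axis) of the 9 genes, of the 5 B cell surface and identity genes, and of T cell, macrophage and leukocyte lists in the 9 libraries, each point 1 library. In primary 2 the 9 genes sum to 30.9 CPM while the macrophage list reaches 929 CPM.

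The genes whose levels were most like those of Cd79a, Cd79b and Ms4a1 over the 9 libraries were ranked by the root mean square difference of their centred log2(CPM + 0.5) values. Among 14767 genes with a mean of at least 1 CPM, whose median difference was 1.26, the nearest included Fcmr (0.273), Spib (0.302), Pou2af1 (0.315), Ccl21a (0.351), Btla (0.371), Cd22 (0.375), Bank1 (0.452), H2-Ob (0.470) and H2-DMb2 (0.485). The values were centred but not scaled, so a wider range alone adds to the difference. Of the 9 genes themselves, Jchain (1.17), Igkc (1.20) and Ighm (1.48) lay near or above the median of 1.26. Fcmr encodes a receptor for IgM, Cd22 an inhibitory receptor of B cells, and Pou2af1 a transcriptional coactivator of B cells. Pou2af1 had 0.300, 0.880 and 1.83 CPM in distal and 0.443, 7.70 and 0.196 CPM in proximal metastases, against 5.34, 0.351 and 6.65 CPM in primary tumours. Ccl21a, a chemokine of lymphatic vessels and lymphoid stroma rather than of B cells, had 0, 1.67 and 1.03 CPM in distal and 0.157, 7.01 and 0.171 CPM in proximal metastases, against 3.35, 0.195 and 2.17 CPM in primary tumours. It was high in the same 3 libraries as the B cell genes, although near-identical copies of the gene make its count uncertain. A count of 0 allows up to 0.0763 CPM before TMM scaling in distal 1.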

How the data were processed

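The authors deposited whole-number counts per Ensembl gene, 1 file for each of the 9 libraries. The submitters' processing notes name HTSeq 0.6.0 and TopHat2 2.1.0 on GRCm38.p3; the strand setting, annotation release and handling of multiply mapped reads are not given there. Of 47069 identifiers, 46488 matched a symbol. Positions and lengths came from GENCODE M21 on GRCm38, and TPM values were computed here from its exonic lengths.

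From the deposited counts, edgeR 4.0.16 (R 4.3.3) kept 18204 genes (filterByExpr by group, minimum count 10, minimum total 15), all 9 described genes among them, and left out 28865. Its robust quasi-likelihood F-test with TMM factors used all 9 libraries, which leaves 6 residual degrees of freedom, and p-values were adjusted by Benjamini-Hochberg over all tested genes with a threshold of 0.05. An SE is the size of the log2 fold change over the root of F. The pipeline was tested on simulated data with the same spread setting for every gene, which does not show its power for genes that vary as widely as the 9. Whether samples of a group came from separate animals is stated only as matching within 3 mice, so p-values treat libraries as independent. Alternatives were RLE factors, library totals, 2 other filters, DESeq2 1.42.0, limma-voom 3.58.1, no robust shrinkage, the compared groups alone, immunoglobulin genes removed, and each library left out. Shares have 95% Wilson intervals and count ratios exact ones; both cover counting error only.

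The 9 genes, the companion lists and the alternatives were chosen with earlier results of these data known. Named were the 9 genes, the called members of each companion list (there were none) filled to 3 by mean CPM, of which those bearing on B cells are described, genes among the 10 nearest by likeness, and the most counted variable segments; other genes are said to have been chosen after their values were seen. Some items are not reported here.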

Additional observations from a re-analysis of the deposited data

How the results depend on the processing

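None of the 9 genes was called in any comparison under any alternative run, and each kept its negative log2 fold change in distal against primary, where leaving out 1 library gave −4.12 to −2.03 for Cr2, −2.75 to −0.64 for Ighm and −1.90 to −0.86 for Cd79a. In proximal against primary, limma-voom turned Cd79a to −0.88, Cd79b to −0.80 and Ms4a1 to −1.11. Leaving out 1 library at a time gave −2.84 to 0.63 for Cd79a, −2.34 to 0.58 for Cd79b, −3.08 to 0.80 for Ms4a1, −3.40 to 0.33 for Pax5, −4.00 to 0.52 for Cr2 and −3.90 to 0.62 for Mzb1. In distal against proximal, limma-voom turned Ighm to −0.056, and leaving out libraries gave −1.99 to 1.47 for Cd79a, −1.99 to 0.93 for Cd79b, −2.47 to 1.41 for Ms4a1, −2.80 to 1.41 for Pax5, −3.10 to 0.47 for Cr2, −1.94 to 2.04 for Jchain, −2.57 to 1.80 for Mzb1, −0.29 to 2.16 for Ighm and −1.82 to 2.07 for Igkc. The causes were not tested.

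Genes called over all tested moved more: 16 in distal against primary became 10 with library totals, 1444 in DESeq2, 1 in limma-voom and 0 with the compared groups alone, and 0 to 5203 when a library was left out. The 9 in proximal against primary became 15 with RLE factors, 26 without the filter, 23 with the 1 CPM filter, 1491 in DESeq2, 1 in limma-voom, 22 without robust shrinkage, 22 without immunoglobulin genes, 0 with the compared groups alone, and 0 to 5447 when a library was left out; 5203 and 5447 are the counts without primary 1. In distal against proximal, 0 became 83 in DESeq2 and 0 to 38 when a library was left out. No paired analysis was possible because the labels do not say which samples share a mouse. Levels under 1 CPM rest on few counts, in the case of Pax5 in distal 1 on 1.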
